A study of Mus musculus with 16 samples.

Results

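Transcripts of 9 genes of the JAK-STAT pathway and its feedback inhibitors were followed by SLAM-seq in mouse leukemia cells: the kinase genes Jak1 and Jak2, the transcription factor genes Stat3, Stat5a, Stat5b and Stat6, and the inhibitor genes Socs1, Socs3 and Cish. They were chosen by name, for each the 3' UTR interval with the highest mean read count, out of 21177 genes in the deposited table. The cells came from bone marrow of C57BL/6 mice of the genotypes WT and YBX1-/-, where YBX1 is an RNA-binding protein that the series title links to mRNA stability through m6A, a methyl mark on adenosines. All cells of both genotypes were labelled with the uridine analogue 4-thiouridine (4sU) at 50 µM for 24 h and then chased with 10 mM uridine. Polyadenylated RNA was taken at 0, 0.5, 1, 3, 6, 12, 18 and 24 h of the chase, with 1 library for each genotype and time point, 16 in all. The age of the mice, the way the leukemia was started, the deleted part of Ybx1 and the number of animals behind a library are not given in the sources used here. Ybx1 itself had rates of 55.2%, 61.4%, 56.8%, 50.1%, 38.9%, 15.5%, 7.3% and 5.1% along the WT chase. Along the YBX1-/- chase they were 72.0%, 51.7%, 43.4%, 48.9%, 31.1%, 20.8%, 4.7% and 3.1%. A rate is a share of the reads present, so these values do not check the genotype.

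Cytokine receptors without an enzyme of their own carry JAK kinases on their inner side. When a ligand binds, the kinases phosphorylate the receptor and then the STAT proteins, which pair up, enter the nucleus and switch on genes. Among those genes are Cish and the Socs genes, whose products bind the receptor or the kinase and shut the signal off, so the pathway holds a negative feedback loop. In myeloid cells it carries the signals of GM-CSF, IL-3, G-CSF, IL-6 and the interferons, and feedback inhibitors of this kind are known for short-lived messages. YBX1 itself binds mature mRNAs in the cytoplasm.

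The measured value is the T-to-C rate of an interval, the share of the sequenced signal that carries the conversion left by 4sU, given here in percent. It is a share and not an amount: it falls when labelled transcripts decay and when new unlabelled ones dilute them, and it cannot tell a change in some cells from a smaller change in all. A rate of exactly 0 can mean no converted reads or no reads. The median rate over the 7411 genes with a rate above 0 in at least 12 libraries, called tested genes below, was 42.9% at the start of the WT chase, 19.9% after 3 h, 10.2% after 6 h and 0.847% after 24 h. The YBX1-/- medians at these times were 33.3%, 18.2%, 4.76% and 0.768%. The YBX1-/- 0 h library stood apart from the other 5 libraries of the first hour: its mean correlation with them across tested genes was 0.279, against 0.428 to 0.551 for the others, and 3.64% of tested genes were listed at 0 in it, against 0.405% or less. All 10 myeloid markers examined, Lyz2 and Mpo among them, had a mean of at least 17.1 CPM, a read count scaled to the size of the library. Of the erythroid markers 2 of 8 were above 1 CPM (summed 3.77, with Alas2 at 0), of the B lymphoid 1 of 6 (7.5), of the T and NK 1 of 8 (12.8), of the megakaryocyte 3 of 5 (69.7, of which Pf4 39.8) and of the stromal 1 of 6 (4.91). These means run over both genotypes, so they say nothing about a difference between them.

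The 9 intervals lay in annotated UTRs of their own genes on GRCm38. Those of Jak1 (ENSMUSG00000028530, chr4:101152367-101153494, minus strand) and Jak2 (ENSMUSG00000024789, chr19:29311849-29313080, plus) lay wholly past the last coding base. So did those of Stat5b (ENSMUSG00000020919, chr11:100780731-100783095, minus), Stat6 (ENSMUSG00000002147, chr10:127659982-127660957, plus), Socs1 (ENSMUSG00000038037, chr16:10782240-10784232, minus) and Socs3 (ENSMUSG00000053113, chr11:117966079-117967552, minus). Stat3 (ENSMUSG00000004040, chr11:100885098-100888760, minus) and Stat5a (ENSMUSG00000004043, chr11:100883997-100885169, plus) run towards each other and their intervals shared 72 bases. For Cish (ENSMUSG00000032578, chr9:107300537-107302784, plus) 16.2% of the bases were coding in some transcript, as were 5.5% for Stat5a and 1.5% for Stat3, and the predicted antisense gene Gm17041 covered 1302 of the 2248 bases. Whether the counting used the strand, and how reads shared by similar genes such as Stat5a and Stat5b were placed, was not given in the sources used here. The mean read count of the interval, not scaled to its length, was 40.3 CPM for Jak1, 32.7 for Cish, 30.6 for Stat6, 12.3 for Stat5b, 11.3 for Jak2, 11.2 for Stat3 and 8.65 for Stat5a, but 4.51 for Socs3 and 2.57 for Socs1. Socs3 and Socs1 stood at the 17.9th and 5.8th percentile of tested genes in this count. Both had a rate above 0 in 11 libraries, below the limit of 12, so that 7 of the 9 genes were tested and these 2 are given by their values alone.

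Sequence elements known to govern message life were looked up in the intervals, on the transcript strand, since the study concerns mRNA stability. AU-rich elements, at which decay factors bind, were searched as ATTTA and as its longer form TATTTAT, which contains it. Cish and Socs3 held the runs of overlapping TATTTAT matches, 3 in Cish and 2 in Socs3, and Jak2 and Stat5b held 1 match each. Capitals mark the matched run, and the positions are on GRCm38:
Cish (chr9:107301377-107301405, plus): tatacagTATTTATTTATTTATtctcctt
Socs3 (chr11:117966136-117966164, minus): tgcacataTATTTATATTTATactcagaa
Jak2 (chr19:29313043-29313071, plus): tttttgtgtgtTATTTATacaagatttta
Stat5b (chr11:100781519-100781547, minus): gtgtagtaaatTATTTATtgggagatgag
Of tested intervals within 10% of the same length, 42.4% held TATTTAT for Cish, 32.1% for Socs3, 29.1% for Jak2 and 42.0% for Stat5b. The count of 3 in Cish was at the 97.4th and that of 2 in Socs3 at the 94.5th percentile of intervals of like length. Jak1, Stat3, Stat5a, Stat6 and Socs1 held no match to TATTTAT, and Stat6 and Socs1 none to ATTTA either. The order was another one for ATTTA. Jak1 stood highest, with 4 matches at the 85.3rd percentile of intervals of like length, and Socs3 had 4 at the 78.5th. Jak2 had 2 (52.7th), Cish 3 (44.2nd), Stat5b 3 (39.8th), Stat5a 1 (32.5th) and Stat3 2 (11.3rd). The high percentile of Cish was thus limited to the longer form.

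GGACT and GGACA, common forms of the sequence at which m6A is placed, were searched next, and each of the 9 intervals held at least 1 match to one or the other. GGACT was found 5 times in Cish and 3 times in Jak1, at the 93.8th and 92.2nd percentile of like-length intervals, of which 84.7% and 64.6% held it. The Cish matches at bases 10 and 301 of the interval lie in its part that is coding in some transcript. Socs1 and Socs3 had 1 match each to GGACT, and Jak2 none. GGACA was found 1 time in Cish, at the 20.2nd percentile, and not in Jak1, at the 15.2nd. Its highest percentile among the 9 was the 80.9th, for 4 matches in Stat5b. The GGACT matches shown are the only one in Socs1 and Socs3, the first of Jak1 and the fourth of Cish, which lies next to its AU-rich run:
Cish (chr9:107301355-107301379, plus): ctgggctaggGGACTacacagttat
Jak1 (chr4:101153169-101153193, minus): gcatagcaaaGGACTgtgccgctgg
Socs1 (chr16:10783468-10783492, minus): gaccattcctGGACTggagaggtgg
Socs3 (chr11:117967253-117967277, minus): tttgacaagcGGACTctcccctccc
These are matches of letters, and whether a site is methylated or bound was not measured here. In base composition Socs3 held 22.0% T (6.0th percentile of tested genes), Cish 23.7% (11.8th), Stat6 24.7% (16.6th), Stat3 25.6% (22.0th) and Socs1 26.0% (24.9th), below the median of 29.3%, while Stat5b held 27.4%, Stat5a 29.8%, Jak1 30.3% and Jak2 31.7%.

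The mean rate over the first hour was 48.7% for Jak1 and 41.7% for Jak2 in WT, at the 65.1st and 34.0th percentile of tested genes, and 42.8% and 36.6% in YBX1-/-, at the 87.0th and 64.9th. Jak1, a kinase that serves interferon and IL-6 type receptors, had WT rates of 41.8%, 56.6%, 47.8%, 25.9%, 13.3%, 2.16%, 0.76% and 0.71% over the 8 time points. In YBX1-/- the Jak1 rates were 52.5%, 44.3%, 31.4%, 27.9%, 4.9%, 0.71%, 5.26% and 0.31% at the same times. The 18 h value of 5.26% was above the 12 h one, at the 91.2nd percentile of that library, while the neighbouring 12 and 24 h values were at the 28.1st and 19.4th. Jak2, the kinase of the GM-CSF, IL-3, erythropoietin and thrombopoietin receptors, had 49.5%, 34.4%, 41.2%, 12.7%, 8.85%, 3.16%, 1.6% and 0% in WT. In YBX1-/- it had 21.7%, 46.0%, 42.2%, 20.0%, 7.37%, 4.0%, 2.82% and 0.43%. Except at 0 h and 6 h the Jak2 rate was the higher one in YBX1-/-, although the typical transcript had the lower rate there through 12 h. The other Jak2 interval, which lies inside the first, did not repeat this order. At 0.5, 1 and 12 h it had 42.6%, 40.8% and 3.8% in WT, and less in YBX1-/-, 38.0%, 32.3% and 3.33%. It was also lower in YBX1-/- at 0 h, higher at 3, 6 and 18 h, and at 0% in both at 24 h.

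The 4 STAT transcripts went different ways at 3 h. Stat3, which carries IL-6 and G-CSF signals, had 38.4%, 39.3%, 51.1%, 3.45%, 11.8%, 1.76%, 0.47% and 1.34% in WT and 43.5%, 35.5%, 30.4%, 14.6%, 3.48%, 0%, 0.72% and 0.24% in YBX1-/-. Its WT value at 3 h was at the 6.3rd percentile and the one at 6 h at the 60.6th, so the drop at 3 h was not kept at 6 h. The second-most covered Stat3 interval, which lies inside the first, showed the same order, with 59.8% at 1 h, 3.26% at 3 h and 12.7% at 6 h. Stat5a, a main carrier of GM-CSF and IL-3 signals together with its neighbour and paralog Stat5b, had 35.4%, 38.0%, 30.1%, 5.95%, 4.79%, 1.22%, 1.25% and 1.44% in WT. In YBX1-/- Stat5a had 25.8%, 33.3%, 31.3%, 16.4%, 4.46%, 3.96%, 1.67% and 0.68%. Stat5b had 38.8%, 39.7%, 48.1%, 22.7%, 12.1%, 0.46%, 0.79% and 1.56% in WT and 26.7%, 34.1%, 23.1%, 10.9%, 4.27%, 0.89%, 0% and 1.02% in YBX1-/-. The paralogs were thus far apart in WT at 3 h, 5.95% against 22.7%, and in the opposite order in YBX1-/-. Stat6, the STAT of IL-4 and IL-13 signals, had 44.9%, 40.0%, 36.7%, 17.7%, 7.11%, 1.34%, 1.09% and 0.42% in WT, below the typical transcript at every time but 0 h. In YBX1-/- its rates were 29.9%, 28.7%, 25.8%, 18.6%, 5.46%, 2.72%, 1.41% and 0%.

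The inhibitor transcripts carried less label than most in the first hour in WT. Cish, which encodes the STAT5-induced inhibitor CIS, had 37.0%, 34.3%, 26.9%, 4.25%, 7.82%, 2.55%, 1.16% and 0.38% in WT and 36.6%, 30.5%, 20.7%, 7.57%, 2.08%, 0.4%, 1.06% and 0.44% in YBX1-/-. At 3 h it stood at the 7.7th percentile in WT and the 10.3rd in YBX1-/-, low in both. Socs3, which blocks IL-6 and G-CSF receptor signals, had 38.4%, 26.7%, 20.5%, 8.06%, 6.35%, 3.33%, 0% and 0% in WT. In YBX1-/- Socs3 had 11.1%, 29.0%, 16.7%, 12.9%, 2.44% and then 0% in the last 3 libraries. Socs1, which inhibits JAK kinases directly and restrains interferon signals, had 39.3%, 26.7%, 0%, 4.81%, 12.5%, 0%, 0% and 0% in WT and 27.3%, 25.0%, 16.7%, 4.69%, 3.64%, 4.76%, 0% and 1.27% in YBX1-/-. The WT value of 0% at 1 h lies between 26.7% and 4.81%, and at 2.57 CPM the rate of Socs1 rests on few reads. The mean of 0, 0.5 and 1 h in WT was 22.0% for Socs1, 28.5% for Socs3 and 32.7% for Cish, against 34.5% to 48.7% for the 6 kinase and STAT genes and a median of 45.4%. Socs1, Socs3 and Cish stood at the 2.9th, 5.6th and 10.2nd percentile in this mean. Without the WT 1 h library, where Socs1 was listed at 0%, the means were 33.0% for Socs1, 32.5% for Socs3 and 35.6% for Cish, at the 9.7th, 9.2nd and 13.5th percentile. In YBX1-/- the same means were 23.0%, 18.9% and 29.2%, at the 9.7th, 4.7th and 28.5th percentile, and those of Stat5b (27.9%) and Stat6 (28.1%) were below that of Cish.

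**Figure D1:**
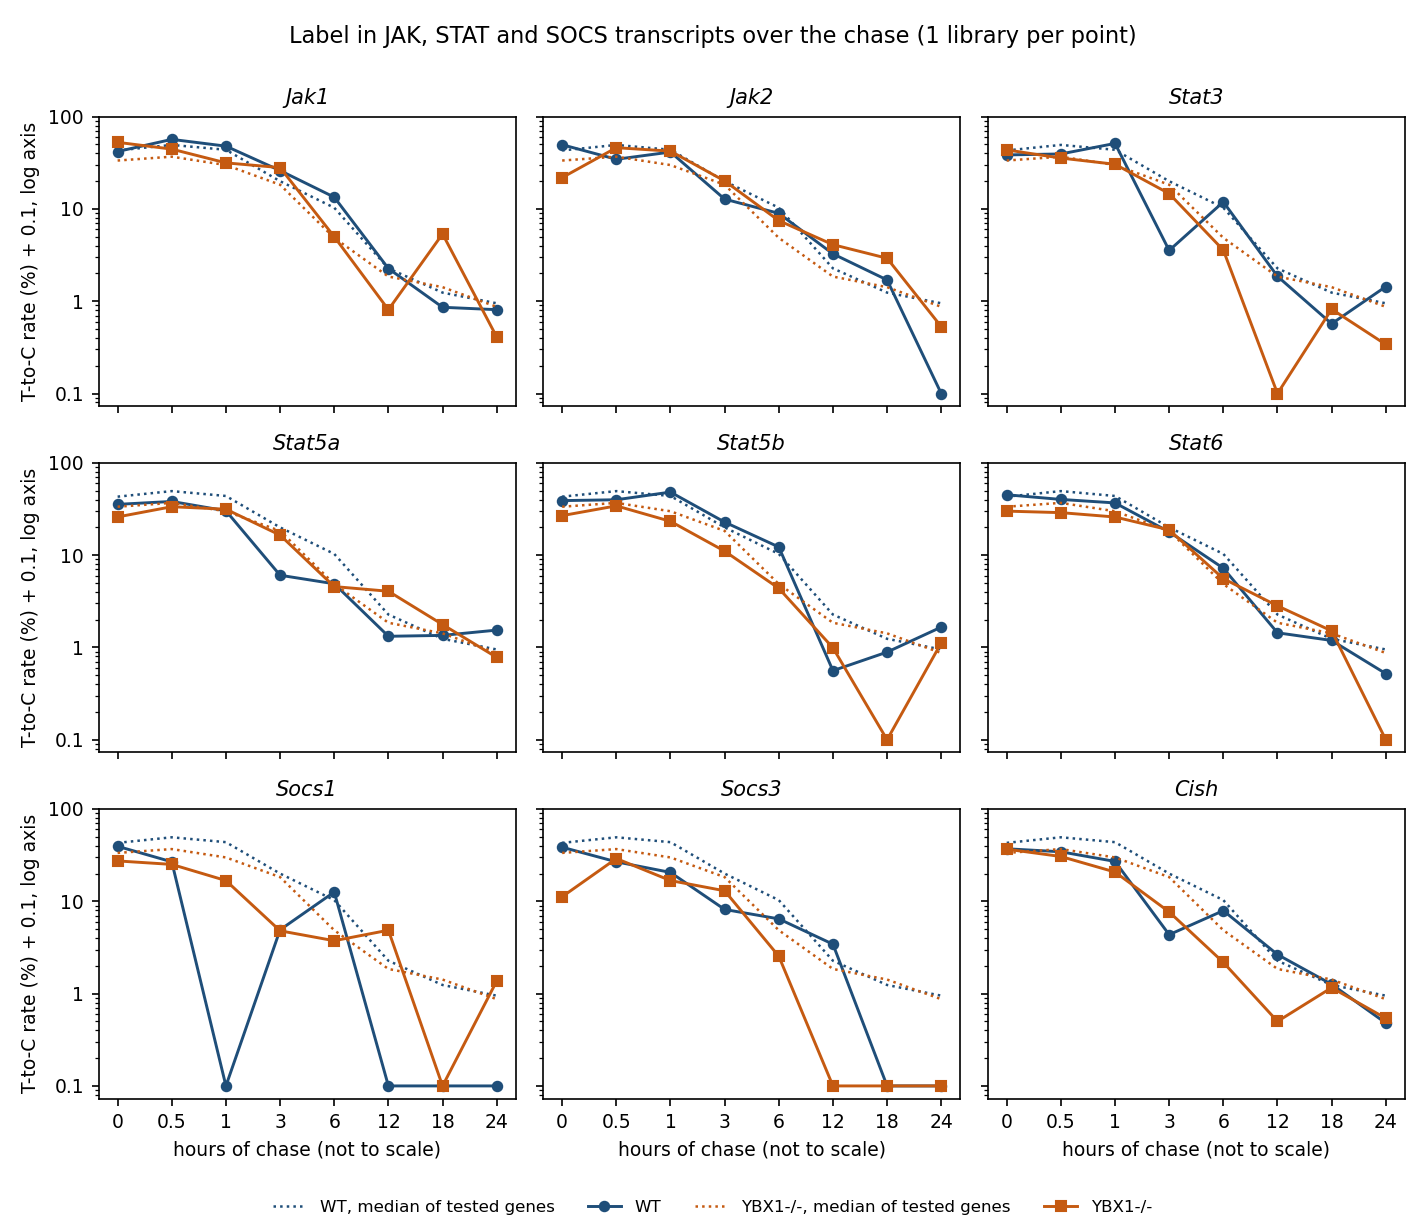
T-to-C rate plus 0.1 percentage points on a log axis against hours of chase (spaced evenly, not to scale) for the 9 genes, with WT as circles, YBX1-/- as squares, 1 library per point, and dotted lines for the median of tested genes in each library; points at 0.1 are rates of 0. Cish lies below the dotted lines at 3 h in both genotypes, Stat3 and Stat5a in WT by far more than in YBX1-/-, and Jak1 above them.

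The share of first-hour label left at 3 h differed widely among the genes. As a percentage of the mean of 0, 0.5 and 1 h, the WT rate at 3 h was 8.04% for Stat3, 13.0% for Cish, 17.2% for Stat5a, 21.9% for Socs1, 28.3% for Socs3, 30.4% for Jak2, 43.8% for Stat6, 53.2% for Jak1 and 53.8% for Stat5b. The median of tested genes was 45.0%, and Stat3, Cish and Stat5a stood at the 5.2nd, 8.5th and 12.0th percentile. In YBX1-/- the order was another one, with 20.4% for Socs1, 25.9% for Cish, 39.1% for Stat5b, 39.9% for Stat3, 54.3% for Stat5a, 54.6% for Jak2, 65.3% for Jak1, 66.3% for Stat6 and 68.2% for Socs3, beside a median of 54.7%. Socs1 and Cish stood at the 6.6th and 11.5th percentile there, and Stat3 at the 28.8th. The value of Socs3 in YBX1-/- contains the 11.1% of the 0 h library that stood apart, and was 56.6% without it. The WT value of Socs1 contains its 0% at 1 h, and was 14.6% without that library. With 1 library at each point these shares have no replicate check.

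The mean of 3 and 6 h as a percentage of the first-hour mean was 15.6% for Stat5a, 17.8% for Stat3, 18.4% for Cish, 25.3% for Socs3, 25.8% for Jak2, 30.6% for Stat6, 39.3% for Socs1, 40.3% for Jak1 and 41.3% for Stat5b in WT, where the median of tested genes was 33.9%. In YBX1-/- it was 16.5% for Cish, 18.1% for Socs1, 24.7% for Stat3, 27.2% for Stat5b, 34.5% for Stat5a, 37.4% for Jak2, 38.4% for Jak1, 40.6% for Socs3 and 42.8% for Stat6, with a median of 35.1%. Cish was at the 13.4th percentile in WT and the 10.5th in YBX1-/-. The WT value of Socs1 was 26.2% without the 1 h library. Between 3 and 6 h the WT rate was higher at the later time for Stat3 and Cish, 2 of the 7 tested genes against 17.2% of all tested genes, and also for Socs1. In YBX1-/- this held for 0 of 7, against 4.64%. Other rises between neighbouring times in WT were found from 0 to 0.5 h in 4 of 7 (72.5% of tested genes), from 0.5 to 1 h in 3 (29.8%), from 12 to 18 h in 2 (25.2%) and from 18 to 24 h in 3 (36.8%). In YBX1-/- they were found from 0 to 0.5 h in 3 of 7 (59.7%), from 0.5 to 1 h in 0 (16.6%), from 12 to 18 h in Jak1, Stat3 and Cish (34.9%) and from 18 to 24 h in Stat5b (30.3%). Of the genes not tested, Socs1 also had a higher rate at the later time from its 0% at 1 h to 3 h in WT, and from 6 to 12 h and 18 to 24 h in YBX1-/-, and Socs3 from 0 to 0.5 h in YBX1-/-.

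**Figure D2:**
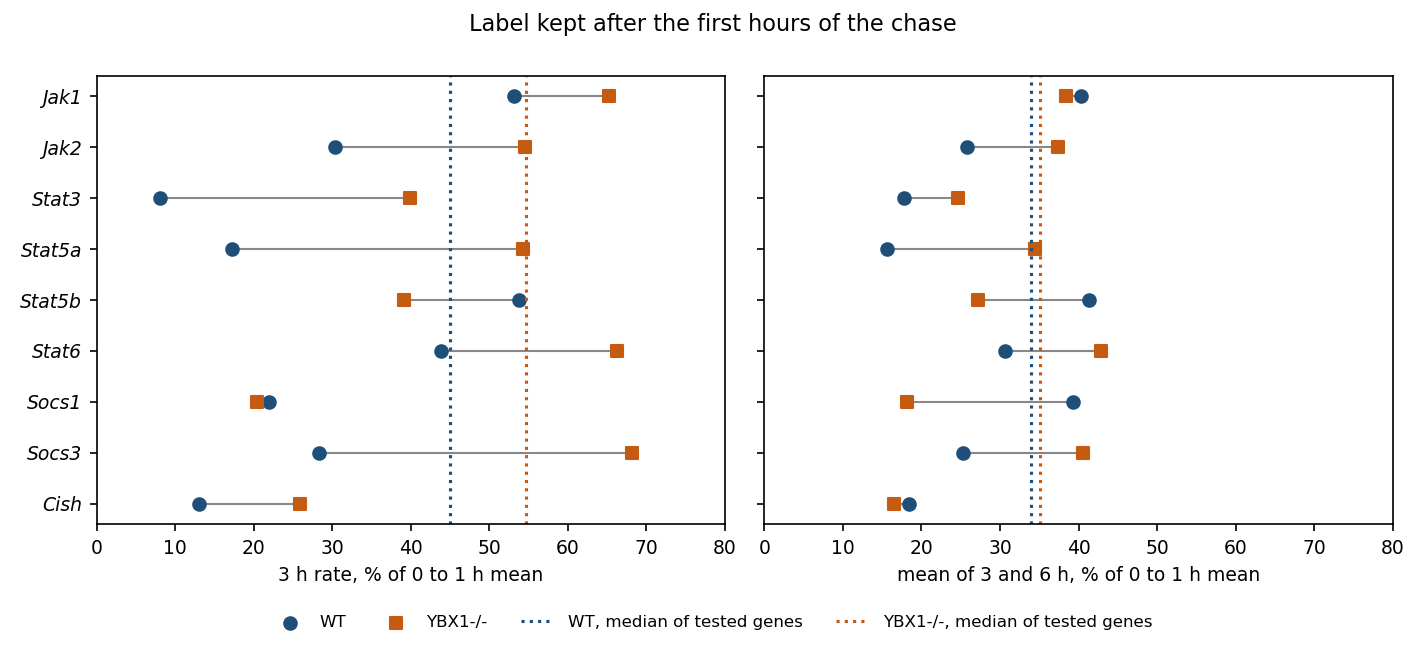
Rate at 3 h (left) and mean of 3 and 6 h (right), each as a percentage of the gene's mean over 0, 0.5 and 1 h, for WT (circles) and YBX1-/- (squares); dotted lines are the medians of tested genes. At 3 h Stat3 is at 8.04% in WT and 39.9% in YBX1-/-, Stat5a at 17.2% and 54.3%, and Cish is left of the medians in both.

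Label fell past the threshold over the chase in all 7 tested genes in both genotypes, as it did for 95.2% of tested genes in WT and 91.5% in YBX1-/- (limma, straight line over hours on log2(rate + 0.1 percentage points), adjusted p under 0.05). A rise passed for 0 of the 7, against 0.0135% of tested genes in WT and 0.0% in YBX1-/-. In WT the slopes ran from -0.21 log2 per h for Stat5a (SE 0.048, 95% interval -0.314 to -0.099, adjusted p = 0.00204) to -0.33 for Jak2 (SE 0.038, -0.41 to -0.241, adjusted p = 2.51e-05), beside a median of -0.27. The half-life of label from these lines was 3.07 h for Jak2, 3.55 h for Jak1, 3.6 h for Stat6, 3.91 h for Stat5b, 4.09 h for Cish, 4.21 h for Stat3 and 4.83 h for Stat5a. In YBX1-/- it was 3.14 h for Stat3, 3.22 h for Stat6, 3.54 h for Stat5b, 3.82 h for Jak1, 3.98 h for Cish, 4.22 h for Jak2 and 4.53 h for Stat5a. The 95% intervals of the slopes overlapped for every pair of tested genes within a genotype, so the order is no ranking. With the library median subtracted, 0 of the 7 genes had a slope past the threshold in either genotype, and 0 at an unadjusted p under 0.05.

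A straight line on the log scale weighs the low rates late in the chase as much as the first hours, so another form was fitted to the rates themselves. Curves of exponential decay onto a constant floor put the WT half-life at 1.38 h for Cish (0.909 to 2.47 over fits with 1 time point left out), 1.62 h for Stat5a (0.994 to 2.35), 1.87 h for Jak2 (1.4 to 2.57), 2.15 h for Stat3 (1.33 to 3.67), 2.27 h for Stat6 (2.1 to 2.42), 3.31 h for Jak1 (2.35 to 3.56) and 3.4 h for Stat5b (2.82 to 3.64). The same fit to the median of tested genes gave 2.76 h. In YBX1-/- the fits gave 1.26 h for Cish (1.1 to 1.35), 1.84 h for Stat3 (1.76 to 1.89), 2.23 h for Jak1 (1.37 to 2.63), 2.26 h for Stat5b (1.42 to 2.54), 3.07 h for Stat5a (2.05 to 4.17), 3.19 h for Stat6 (2.67 to 3.91) and 3.83 h for Jak2 (1.93 to 4.75), with 2.66 h for the median. The WT curve of Socs3 gave 1.1 h (1.03 to 1.54). Its YBX1-/- curve, which starts at 11.1%, gave 3.34 h (1.86 to 4.16). For Socs1 the fit gave 0.4 h in WT, with a lower end of 0.1 h set by the bound of the fit, and 1.2 h (0.771 to 1.49) in YBX1-/-. Cish had the shortest of these half-lives among the 7 tested genes in both genotypes. In YBX1-/- its range over the fits did not overlap those of Stat3, Stat5a, Stat6, Jak1, Jak2 or Stat5b. Its upper end of 1.35 h was close to the lower end for Jak1, 1.37 h. In WT its range overlapped those of Jak2, Stat3, Stat5a, Stat6 and Jak1. The fits behind a range share all but 1 time point, so these ranges are no confidence intervals and do not separate the genes. The fitted WT floor of Cish, 1.7%, lay above its WT rates at 18 and 24 h, 1.16% and 0.38%. Where Cish stands among all tested genes in these fits was not computed.

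Relative to the typical transcript, no gene of the pathway was called as carrying more or less label in YBX1-/-. In the labelling level difference, the YBX1-/- minus WT difference over all time points after the library median is subtracted, 0 of 7 genes passed and 0 of 7411 overall (0.0% called in either direction, limma), and 1 of 7, Jak2, had an unadjusted p under 0.05, as did 415 of 7411. After centring, Jak2 was higher in YBX1-/- than in WT in 7 of 8 pairs of libraries, by 0.74 log2 (SE 0.322, 95% interval 0.02 to 1.46, adjusted p = 0.779). At 24 h its difference of 2.52 log2 rests on a WT rate of 0%, and at 0 h, in the library that stood apart, it was -0.82. Stat5a had 0.57 (SE 0.335, interval -0.18 to 1.32, adjusted p = 0.779), higher at 6 of 8 time points with 1.57 at 3 h and 1.92 at 12 h. Stat5b had -0.56 (SE 0.459, -1.59 to 0.47, adjusted p = 0.814) and was lower at 6 of 8, so the point estimates of the paralogs had opposite signs, a contrast that was not tested. How often tested genes reach counts of 6 or 7 of 8 after centring was not computed, so these counts are descriptions only. Stat3 had -0.43 (SE 0.619, -1.81 to 0.96), with values from 2.17 at 3 h to -3.93 at 12 h, where its YBX1-/- rate was 0%. Jak1 (0.13, -0.69 to 0.95), Stat6 (-0.023, -0.88 to 0.83) and Cish (-0.15, -1.06 to 0.76) lay near 0. The interval end farthest from 0 lay between -0.88 for Stat6 and -1.81 for Stat3 in size, so the data do not show that the genotypes were alike.

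**Figure D3:**
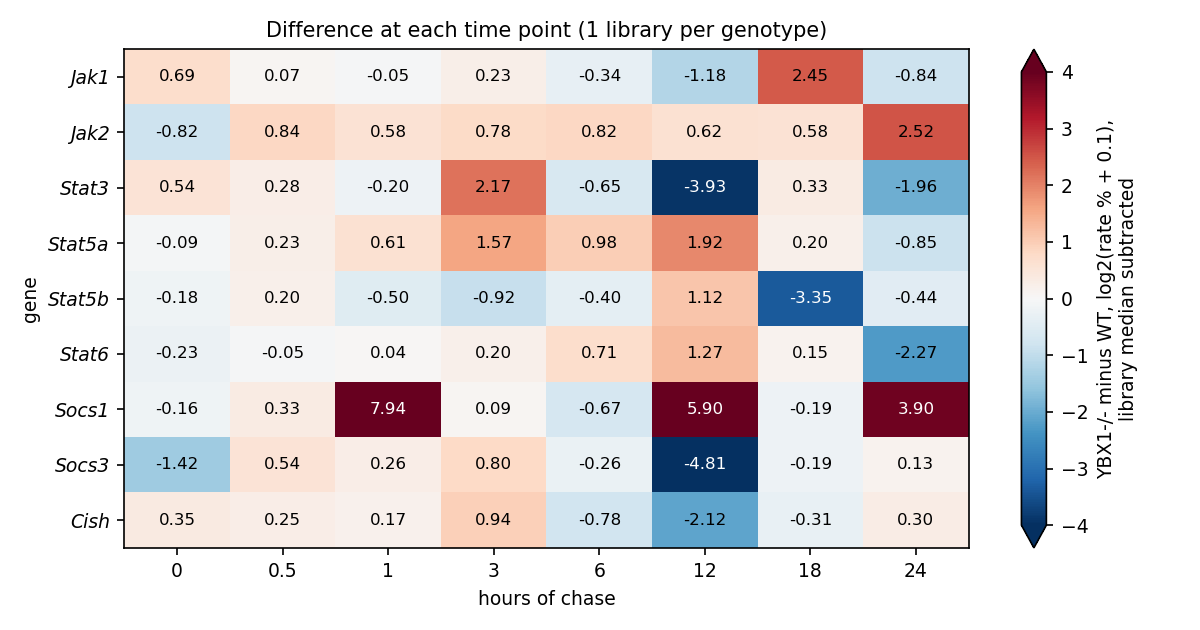
YBX1-/- minus WT at each time point, as log2(rate + 0.1 percentage points) with the library median subtracted, for the 9 genes; red is higher in YBX1-/-, and the colours saturate at -4 and 4. Jak2 is positive at every time but 0 h, a pattern whose share among tested genes was not computed. The strongest colours, such as 7.94 for Socs1 at 1 h and -4.81 for Socs3 at 12 h, fall where 1 library is listed at 0.

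Without subtracting the library median, rates in the first hour were lower in YBX1-/- for Stat5b and Stat6 with no overlap: 26.7%, 34.1% and 23.1% against 38.8%, 39.7% and 48.1% for Stat5b, and 29.9%, 28.7% and 25.8% against 44.9%, 40.0% and 36.7% for Stat6. Such a gap was found in 2 of the 7 tested genes and in 43.1% of all tested genes. At 3 and 6 h every YBX1-/- rate was below every WT rate for Stat5b, 1 of the 7 tested genes against 11.6% of all tested genes, and for Socs1, which was not tested. The reverse gap was found in 0 of 9 in the first hour (0.472% of tested genes) and 0 of 9 at 3 and 6 h (3.08%). At 12 to 24 h 0 of 9 were lower in YBX1-/- without overlap (4.61%) and 0 of 9 higher (3.56%). Stat5b had the lower rate in YBX1-/- at 7 of 8 time points, a count reached or exceeded by 23.0% of tested genes, and Jak2 at 2 of 8.

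The rate at which label was lost was not called different between the genotypes for any of the 7 genes. In the decay rate difference, the interaction of genotype and hours (positive for slower loss in YBX1-/-), 0 of 7 passed, against 0.0405% of tested genes called as slower and 0.0675% as faster, and 0 of 7 had an unadjusted p under 0.05 (929 of 7411). Jak2 had 0.068 log2 per h (SE 0.032, 95% interval -0.004 to 0.141, adjusted p = 0.429), and 0.023 without 24 h, where its WT rate was 0%, and Stat3 had -0.10 (SE 0.068, -0.258 to 0.054, adjusted p = 0.605). Stat6 had -0.053 (-0.151 to 0.045), Stat5b -0.047 (-0.171 to 0.076), Stat5a -0.034 (-0.124 to 0.055), Cish -0.028 (-0.138 to 0.082) and Jak1 0.0 (-0.104 to 0.104). Over 0 to 12 h alone 4 of the 7 had an unadjusted p under 0.05, beside 2314 of 7411 over all tested genes. None of the 7 passed, against 268 of 7411. Jak1 had -0.13 (SE 0.0351, adjusted p = 0.0741), Stat6 0.12 (SE 0.036, 0.0828), Stat3 -0.36 (SE 0.116, 0.0975) and Cish -0.21 (SE 0.0753, 0.117). The Stat3 estimate includes its YBX1-/- rate of 0% at 12 h, and was -0.080 over 0 to 6 h and -0.077 without 12 h. For Jak1 and Stat6 the limit to 0 to 12 h turned the direction of the estimate. Where the low-value filter was lifted, Socs1 had a level difference of 2.20 (SE 1.25, adjusted p = 0.961) and a decay rate difference of 0.001 (SE 0.153), and Socs3 -0.56 (SE 0.894, adjusted p = 0.999) and -0.076 (SE 0.103), with estimates that depend on the value added to their zeros.

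**Figure D4:**
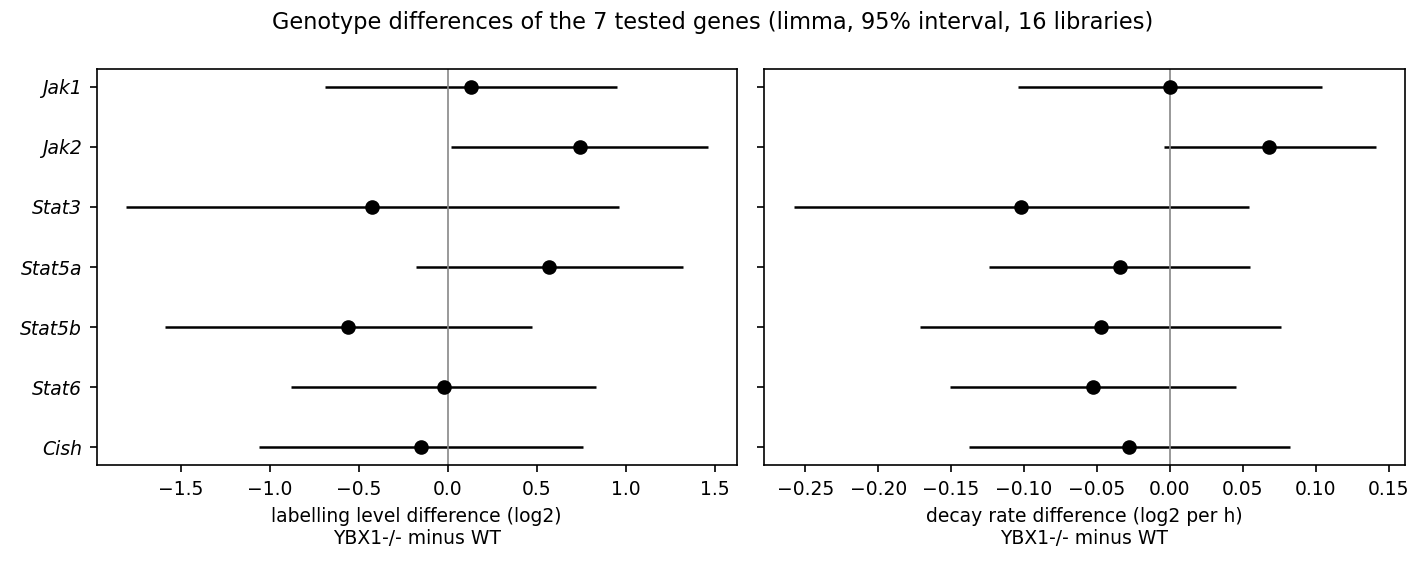
Labelling level difference (left, log2) and decay rate difference (right, log2 per h), YBX1-/- minus WT, for the 7 tested genes; points are limma estimates over 16 libraries and bars their 95% intervals. The bar of Jak2 for the level, 0.02 to 1.46, is the one that does not reach 0, before adjustment over 7411 genes.

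Other genes of the pathway, from lists of receptors, adaptors, inhibitors and known target genes, gave 56 tested genes, of which 0 passed for the level and 0 for the decay rate. At an unadjusted p under 0.05 there were 3 for the level, beside 415 of 7411 over all tested genes, and 5 for the decay rate, beside 929. Label fell past the threshold in 54 of the 56 in WT and 51 in YBX1-/-, beside 95.2% and 91.5% of all tested genes. The 16 tested receptor genes of 21, which bring the kinases to the membrane, had a median level difference of -0.28 log2 and 20 STAT target genes, of which 18 were tested, one of 0.02, beside 0.01 for all tested genes. The receptor genes with the smallest p were Il10ra, the ligand-binding chain for IL-10 (decay rate difference -0.20, SE 0.0588, adjusted p = 0.203), Il4ra, the chain for IL-4 that signals to STAT6 (0.18, SE 0.0627, 0.268), and Il21r (level difference -1.48, SE 0.603, 0.779). Il10ra was listed at 0% at 12, 18 and 24 h in YBX1-/- and had 1.11%, 1.25% and 0.72% in WT.

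Among the other kinase, STAT and SOCS genes, label in Jak3 had not fallen at 3 and 6 h as elsewhere. Its mean at these times was 137% of its first-hour mean in WT and 135% in YBX1-/-, where the first hour includes a rate of 0%. Jak3, the kinase of receptors with the common gamma chain, had 41.9%, 54.8%, 43.6%, 50.0%, 77.8%, 0%, 50.0% and 21.1% in WT and 0%, 26.1%, 21.7%, 23.1%, 20.0%, 9.09%, 0% and 3.12% in YBX1-/-. At 1.23 CPM these rates swing between libraries, and its level difference of -2.03 (SE 1.52) had an adjusted p of 0.79. Tyk2, a partner of Jak1 at interferon receptors, had a level difference of 0.18 (SE 0.2, adjusted p = 0.859). Of the 3 tested genes of the wider SOCS family, Socs4 had a decay rate difference of 0.10 (SE 0.0465, adjusted p = 0.419), Socs6 -0.12 (SE 0.0607, 0.48) and Socs2 a level difference of -0.77 (SE 0.923, 0.866).

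The 10 other inhibitor genes kept a median of 29.5% of their first-hour label at 3 and 6 h in WT and 16.5% in YBX1-/-, against 33.9% and 35.1% for tested genes. For the STAT target genes these medians were 25.1% and 17.2%, for receptors 30.4% and 24.4%, for adaptors 28.9% and 29.0%, for the other SOCS genes 28.5% and 32.9% and for the other JAK and STAT genes 43.5% and 27.6%. The median decay rate difference was 0.02 for the inhibitors and 0.0 for the STAT targets, beside 0.0 for all tested genes, and the difference in these shares between the genotypes was not tested. The phosphatase gene Ptpn2, whose product removes phosphate from JAK and STAT proteins, had a decay rate difference of 0.13 (SE 0.039, adjusted p = 0.204), the adaptor gene Grb2 0.11 (SE 0.032, 0.197) and the transcription regulator gene Id1 0.18 (SE 0.0501, 0.187). Cebpb, a transcription factor of the granulocyte and macrophage lines, had a level difference of -1.34 (SE 0.539, adjusted p = 0.779).

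**Figure D5:**
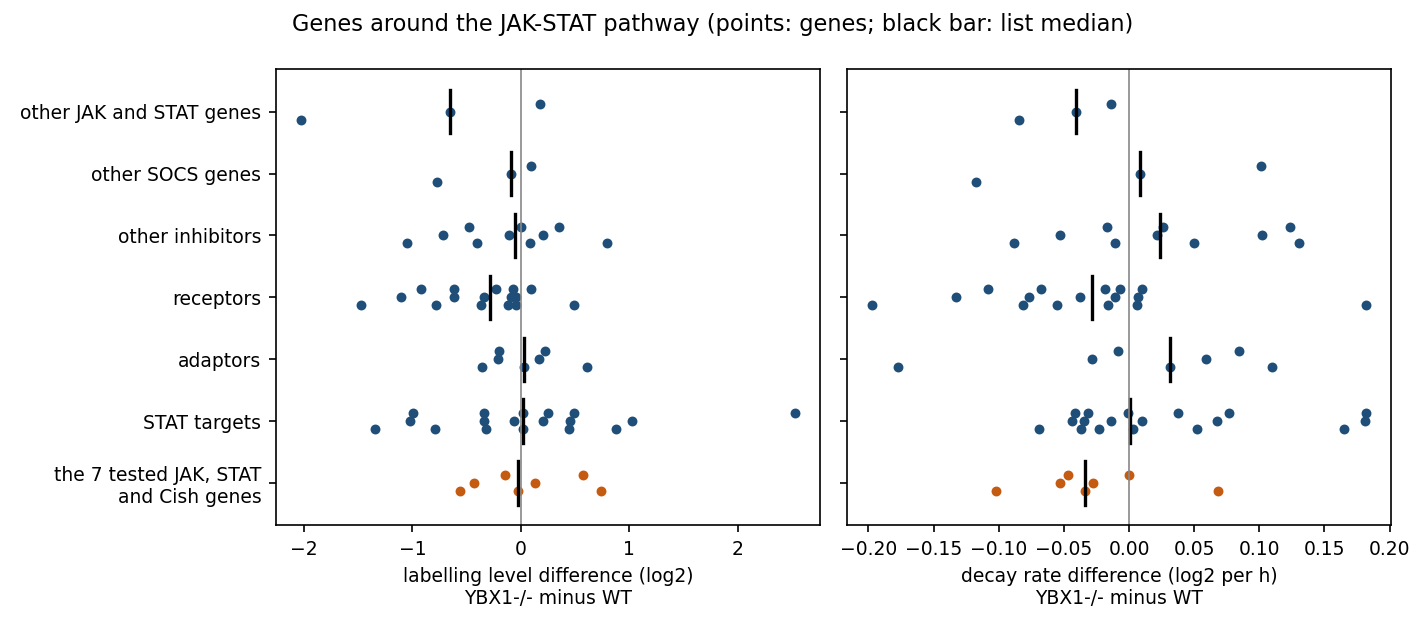
Labelling level difference (left, log2) and decay rate difference (right, log2 per h), YBX1-/- minus WT, of each tested gene in 6 lists around the pathway and of the 7 tested JAK, STAT and Cish genes; black bars are list medians. The level differences lie on both sides of 0 in each list, and no gene in the plot passed the threshold.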

How the data were processed

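The authors deposited 1 table with a T-to-C rate per interval and library as a fraction from 0 to 1, with a mean CPM and a mean coverage signal on Ts over the libraries, per the file headers. The submitters' processing notes name CASAVA, HISAT2 2.1.0 and the human build GRCh38, while identifiers and samples are mouse; the counting program was not given in the sources used here. Coordinates are from GRCm38: for 7396 of 7411 tested intervals a GENCODE M21 exon held the interval, and the number of Ts in its sequence equalled the deposited number in all 7396. Depth per library is unknown, and no unlabelled library was used.

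The interval of highest mean CPM per gene was taken, and rates in percent were analysed as log2(rate + 0.1), which understates changes between low rates above 0. The size of a step to or from a rate of 0 depends on the added 0.1 and can be large. A gene was tested with a rate above 0 in at least 12 of 16 libraries. limma 3.58.1 (R 4.3.3) with a trend was fitted across 7411 genes with Benjamini-Hochberg adjustment. Level and decay differences used values with the library median subtracted and the time point as a factor. With 1 library per genotype and time point, p-values measure scatter between time points. The level and decay fits were also run on values simulated with normal scatter and known changes. That simulation did not model rates of exactly 0, and its outcome is not given here. Floor fits used scipy 1.17.1. The 9 genes and all lists were chosen with earlier results of these data known; beside the 9, up to 3 genes per list with the smallest p, and the 2 most similar genes, are named.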

Additional observations from a re-analysis of the deposited data

How the results depend on the processing

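No call on the 7 tested genes between the genotypes changed under the alternatives tried: 0 passed for the level or the decay rate in each of them. Of the loss of label, over 0 to 6 h 5 of 7 passed in WT, against 6158 of 7411 tested genes. Without a filter 8 of 9 passed in WT (Socs1 did not), against 8137 of 13422 genes. In YBX1-/- 9 of 9 passed without a filter, against 7449 of 13422. With rates above 0 required in all 16 libraries only 3 of the 7 could be tested, and all 3 fell in each genotype, among 2807 of 2836 genes in WT and 2810 in YBX1-/-. With the library median subtracted, 340 genes in WT and 57 in YBX1-/- had a slope past the threshold, and 0 of the 7.

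Over all genes the decay rate difference was called for 8 genes, for 1 with a pseudocount of 0.01 and 1 with 0.5, for 0 without a filter, 268 over 0 to 12 h, 0 over 0 to 6 h, 0 without the YBX1-/- 0 h library, and 0 to 204 with 1 time point left out (204 without 12 h, 91 without 18 h). The level difference was called for 0, and for 2 without a filter. Over 0 to 12 h, 4 of the 56 wider pathway genes passed, all for faster loss in YBX1-/-, beside 133 of 7411 for faster and 135 for slower loss over all genes: Cebpb (-0.39), Gab2 (-0.44), Il21r (-0.41) and Socs2 (-0.41), and without 12 h Il13ra1 (-0.16) did. The cause was not tested.

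Direction turned for estimates that had not passed. For the decay rate difference, Jak1 turned to -0.0032 with a pseudocount of 0.01, -0.046 without a filter, -0.13 over 0 to 12 h and -0.11 over 0 to 6 h, and ranged from -0.058 to 0.063 with 1 time point left out, as did Stat5a from -0.051 to 0.023, Stat5b from -0.10 to 0.010 and Stat6 from -0.070 to 0.038. Stat5a turned to 0.14 and 0.18 and Stat6 to 0.12 and 0.14 over 0 to 12 h and 0 to 6 h, and Stat5b to 0.098 over 0 to 12 h. For the level difference, Jak1 turned to -0.095 over 0 to 12 h and -0.22 without centring, Stat3 to 0.43 and Cish to 0.19 over 0 to 6 h. With 1 time point left out, Jak1 ranged from -0.20 to 0.32, Stat3 from -0.80 to 0.073, Stat6 from -0.21 to 0.30 and Cish from -0.31 to 0.13. Stat6 turned to 0.13 with a pseudocount of 0.5, 0.037 without a filter, 0.32 over 0 to 12 h, 0.13 over 0 to 6 h and 0.0067 without the YBX1-/- 0 h library. Relative to the library median, the slopes of Stat3 (0.021), Stat5a (0.051), Stat5b (0.0023) and Cish (0.014) in WT and of Jak2 (0.00070) and Stat5a (0.017) in YBX1-/- were positive. The level difference of Jak2 was positive in every alternative, from 0.40 to 1.13, and its decay rate difference was positive in each, from 0.022 without a filter to 0.15 with a pseudocount of 0.01. All of these alternatives used the same Jak2 interval. The other Jak2 interval, whose rates were lower in YBX1-/- at 0.5, 1 and 12 h, was not fitted. The libraries of both genotypes are matched by time point, which was a factor in both genotype comparisons; the labels give no replicate numbers. The first-hour means without the WT 1 h or the YBX1-/- 0 h library were added after seeing the data. Depth per library is unknown, so how far it limits Socs1 and Socs3 cannot be stated.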

Other observations

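Each tested gene was set beside all others by the Pearson correlation of its 16 values after the library median was subtracted. The values share their libraries, and the genes most alike are the top of 7411, so these are descriptions. A rate of 0 gave a centred value of -3.24 for Jak2, -4.21 for Stat3, -3.82 for Stat5b and -3.12 for Stat6. Such a value weighs heavily in a correlation, so those of these 4 genes can rest largely on 1 library. Jak1 was most like Ttc17 (0.906) and Snx10 (0.894), Jak2 like Exoc2 (0.917) and Arel1 (0.91), Stat3 like Synj1 (0.921) and Ttpal (0.9), and Stat6 like Mdfic (0.909) and Dab2 (0.892). Stat5a was most like Kif20a (0.885) and Stap1 (0.838), Stat5b like Zbtb11 (0.922) and Mkrn1 (0.905), and Cish like Thtpa (0.859) and Fam136a (0.854). Among the 7 genes themselves the highest value was 0.646, for Stat3 and Cish, and the lowest -0.592, for Jak2 and Stat5b. The paralogs Stat5a and Stat5b had -0.189.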
